A study of Homo sapiens with 14 samples.

Results

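The metallothioneins and zinc exporters described here are 10 of the 56479 genes in the count table: MT1E, MT1F, MT1G, MT1H, MT1M, MT1X, MT2A, MTF1, SLC30A1 and SLC30A10. They were chosen from values of these same libraries, so their levels and fold changes are a description and carry no p-value. RNA had been sequenced from HepG2 (labelled hepatoblastoma) and Hep3B (labelled hepatocellular carcinoma), established human liver cancer lines of wild-type genotype by their labels, as 14 libraries in 7 groups of 2. A HepG2 pair of groups, grown on dishes, had been kept for 5 days with 4% of the osmolyte polyethylene glycol 300 (PEG), which pulls water from cells, or without it in isotonic medium. On transwells, inserts with a porous membrane, HepG2 cells were pressed by a weight or left uncompressed. Hep3B cells on transwells were given 3% PEG, pressed by a weight or left uncompressed. The comparisons ask how liver cancer cells respond to osmotic and to mechanical compression. PEG dose and culture surface both differ between the lines, and neither how heavy the weight was nor how long transwell cultures lasted is known from the labels.

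Metallothioneins are small proteins rich in cysteine that bind zinc, copper and cadmium, and the liver is a main site of their production. Their genes are switched on by MTF1, a transcription factor that senses free zinc and binds short promoter sequences called metal response elements, and also by glucocorticoids and oxidants. MTF1 also drives SLC30A1, the zinc exporter of the cell surface. SLC30A10 is a related transporter that is known in the liver mainly for exporting manganese.

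Sequencing depth was 21.2 M to 35.4 M counts a library. Levels are depth-normalised counts (CPM, on TMM-scaled library sizes). Fold changes are given on the log2 scale as estimate ± standard error, from an edgeR quasi-likelihood fit over 19232 genes. A gene was called where its adjusted p was under 0.05. Uncompressed Hep3B had 2.68 CPM of RB1, a tumour suppressor that this line is known to lack, against 127 CPM in uncompressed HepG2. ALB, which encodes serum albumin and marks hepatocytes, stood at 27592 CPM in uncompressed Hep3B and 43238 CPM in uncompressed HepG2. All 4 hepatocyte markers (ALB, AFP, TF and APOA1) were called lower in both PEG comparisons. ALB stood at 2920 CPM in 4% PEG against 54124 CPM in isotonic medium, and at 16917 CPM in 3% PEG. AFP (alpha-fetoprotein) stood at 1857 CPM in 4% PEG against 23773 CPM, and at 210 CPM in 3% PEG against 637 CPM. TF (transferrin) stood at 2009 CPM in 4% PEG against 17196 CPM, and at 2326 CPM in 3% PEG against 4547 CPM. APOA1 (apolipoprotein A-I) stood at 973 CPM in 4% PEG against 2366 CPM, with overlapping libraries, and at 189 CPM in 3% PEG against 597 CPM. The part of this difference in the members' results was not tested. Replicates differed more on dishes than on transwells: in isotonic medium MT2A was 2.33 times as high in replicate 2 as in replicate 1. Over genes with a mean of at least 5 CPM, the median absolute log2 ratio between replicates was 0.401 in isotonic medium and 0.353 in 4% PEG. In the transwell groups it was 0.0664 to 0.0915. The fit took 1 spread per gene over all 7 groups. Its standard errors and p-values can therefore understate the spread on dishes and overstate it on transwells. Mitochondrially encoded genes took 7.34% and 5.05% of the counts in 4% PEG, against 1.87% and 0.999% in isotonic medium, and with those genes left out of the fit the same members were called. Among blood and endothelial markers, LYZ, which encodes lysozyme, stood at 523 CPM in 4% PEG, against 4203 CPM in isotonic medium. The other 6 markers summed to 21.0 and 25.9 CPM in 4% PEG, against 13.7 and 16.8 CPM in isotonic medium, and to 2.46 and 2.12 CPM in 3% PEG, against 1.26 and 1.37 CPM in uncompressed Hep3B. PTPRC, the pan-leukocyte marker, was at 0 in 10 of 14 libraries and reached at most 0.121 CPM, and the part of other cell types in the results was not tested. A difference in these bulk samples can come from fewer cells of a kind or from less RNA per cell, which cannot be told apart.

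These 4 promoters are shown because they belong to the most abundant metallothionein (MT2A), to the one detected in 3% PEG and hardly elsewhere (MT1H), to one called in both PEG comparisons (MT1X) and to the exporter that moved with them (SLC30A1). Each runs 5′ to 3′ over 250 bases before and 50 bases after the RefSeq gene start (GRCh38.p14). The windows are chr16:56608334-56608633 (plus strand) for MT2A, chr16:56669564-56669863 (plus) for MT1H, chr16:56682220-56682519 (plus) for MT1X and chr1:211579112-211579411 (minus) for SLC30A1. Capitals mark the core of the metal response element, TGCACNC or TGCGCNC, searched on both strands, with overlapping matches merged.
MT2A: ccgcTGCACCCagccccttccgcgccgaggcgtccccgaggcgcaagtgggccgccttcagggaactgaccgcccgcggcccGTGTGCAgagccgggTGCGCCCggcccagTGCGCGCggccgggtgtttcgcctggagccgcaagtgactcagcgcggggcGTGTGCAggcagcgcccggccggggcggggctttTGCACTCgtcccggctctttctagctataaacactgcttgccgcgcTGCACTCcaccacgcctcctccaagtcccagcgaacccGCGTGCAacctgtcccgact
MT1H: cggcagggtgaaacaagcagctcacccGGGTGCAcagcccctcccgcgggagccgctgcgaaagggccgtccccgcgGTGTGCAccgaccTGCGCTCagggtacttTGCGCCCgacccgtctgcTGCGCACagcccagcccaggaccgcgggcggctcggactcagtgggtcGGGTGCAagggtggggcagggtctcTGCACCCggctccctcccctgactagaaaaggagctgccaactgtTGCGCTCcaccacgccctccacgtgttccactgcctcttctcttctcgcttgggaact
MT1X: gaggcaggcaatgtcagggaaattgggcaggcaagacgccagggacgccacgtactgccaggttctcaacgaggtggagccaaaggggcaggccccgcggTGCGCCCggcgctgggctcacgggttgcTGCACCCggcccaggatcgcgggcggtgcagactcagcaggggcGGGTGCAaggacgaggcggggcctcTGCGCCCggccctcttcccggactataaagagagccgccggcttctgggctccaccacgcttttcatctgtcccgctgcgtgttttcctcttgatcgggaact
SLC30A1: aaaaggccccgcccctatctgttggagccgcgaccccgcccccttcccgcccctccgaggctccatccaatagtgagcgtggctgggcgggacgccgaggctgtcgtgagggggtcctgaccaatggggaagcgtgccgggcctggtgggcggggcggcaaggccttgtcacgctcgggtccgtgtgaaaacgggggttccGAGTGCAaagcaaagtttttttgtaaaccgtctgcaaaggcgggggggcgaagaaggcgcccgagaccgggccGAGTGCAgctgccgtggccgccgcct
MT2A and MT1H each held 8 marked stretches, MT1X held 4 and SLC30A1 held 2. In the MT2A window they began between 246 bases before the gene start and 30 bases after it. MT1H and MT1X shared the positions 78 and 53 bases before the start. Of 35116 RefSeq promoter windows of this length, 29.55% held at least 1 such stretch and 7.51% at least 2. At least 4 were held by 0.339% and at least 8 by 0.0171%. The MTF1 window and both SLC30A10 windows held none, which says only that these letters are absent there. The table matched 6 of the 10 members, and MT1E, MT1F, MT1G and MT1M are named only. A match in a window is a description of its letters, not a measured binding site.

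The 7 metallothionein genes lie within a single cluster on chromosome 16 (GRCh38, GENCODE 29), which spans 119 kb from 56565049 to 56684196 and holds 16 metallothionein genes, pseudogenes included. From left to right, MT2A (ENSG00000125148) covers 56608199 to 56609497, MT1E (ENSG00000169715) 56625475 to 56627112 and MT1M (ENSG00000205364) 56632233 to 56633986. MT1F (ENSG00000198417) covers 56657694 to 56660698, MT1G (ENSG00000125144) 56666731 to 56668065, MT1H (ENSG00000205358) 56669814 to 56671129 and MT1X (ENSG00000187193) 56682424 to 56684196. MT1G is read from the minus strand and the other 6 from the plus strand. MTF1 (ENSG00000188786, 37809567 to 37859620), SLC30A1 (ENSG00000170385, 211571568 to 211578742) and SLC30A10 (ENSG00000196660, 219685427 to 219958647) are on chromosome 1, all on the minus strand.

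The lines started from very different metallothionein levels. Uncompressed Hep3B had 24 and 13 counts over all 7 genes together (0.838 and 0.456 CPM), against 2072 and 2279 counts (92.4 and 94.3 CPM) in uncompressed HepG2. MT2A made up most of these counts in HepG2. It stood at 0.419 and 0.175 CPM in uncompressed Hep3B, against 49.7 and 50.4 CPM in uncompressed HepG2. Of the 10 members, 6 were called lower in uncompressed Hep3B than in uncompressed HepG2, where 27.1% of all tested genes were called lower. MTF1, SLC30A1 and SLC30A10 were not among them. MTF1 had 11.7 and 11.5 CPM in uncompressed Hep3B, against 14.7 and 15.3 CPM in uncompressed HepG2. SLC30A1 had 75.9 and 77.5 CPM against 101.5 and 94.8 CPM, and SLC30A10 had 63.7 and 65.8 CPM against 65.9 and 60.03 CPM. Per kilobase of the principal coding transcript, the order of levels in uncompressed HepG2 was MT2A (63.7 CPM per kb), SLC30A10 (32.9), MT1E (31.1), MT1G (22.8), SLC30A1 (17.9), MT1X (12.6), MT1F (9.11), MTF1 (1.89), MT1M (0.181) and MT1H (0.0562). In uncompressed Hep3B, SLC30A10 (33.8 CPM per kb) and SLC30A1 (14.01 CPM per kb) led, and no metallothionein was above 0.661 CPM per kb. Both orders depend on the length taken. SLC30A10 was divided by 1915 bases, while its exons together cover 5770 bases. For MT1X these lengths were 450 and 1773 bases, and for SLC30A1 both were 5474 bases. Levels per kilobase of all exons were not ranked, so no order of SLC30A10 against SLC30A1 is read.

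**Figure D1:**
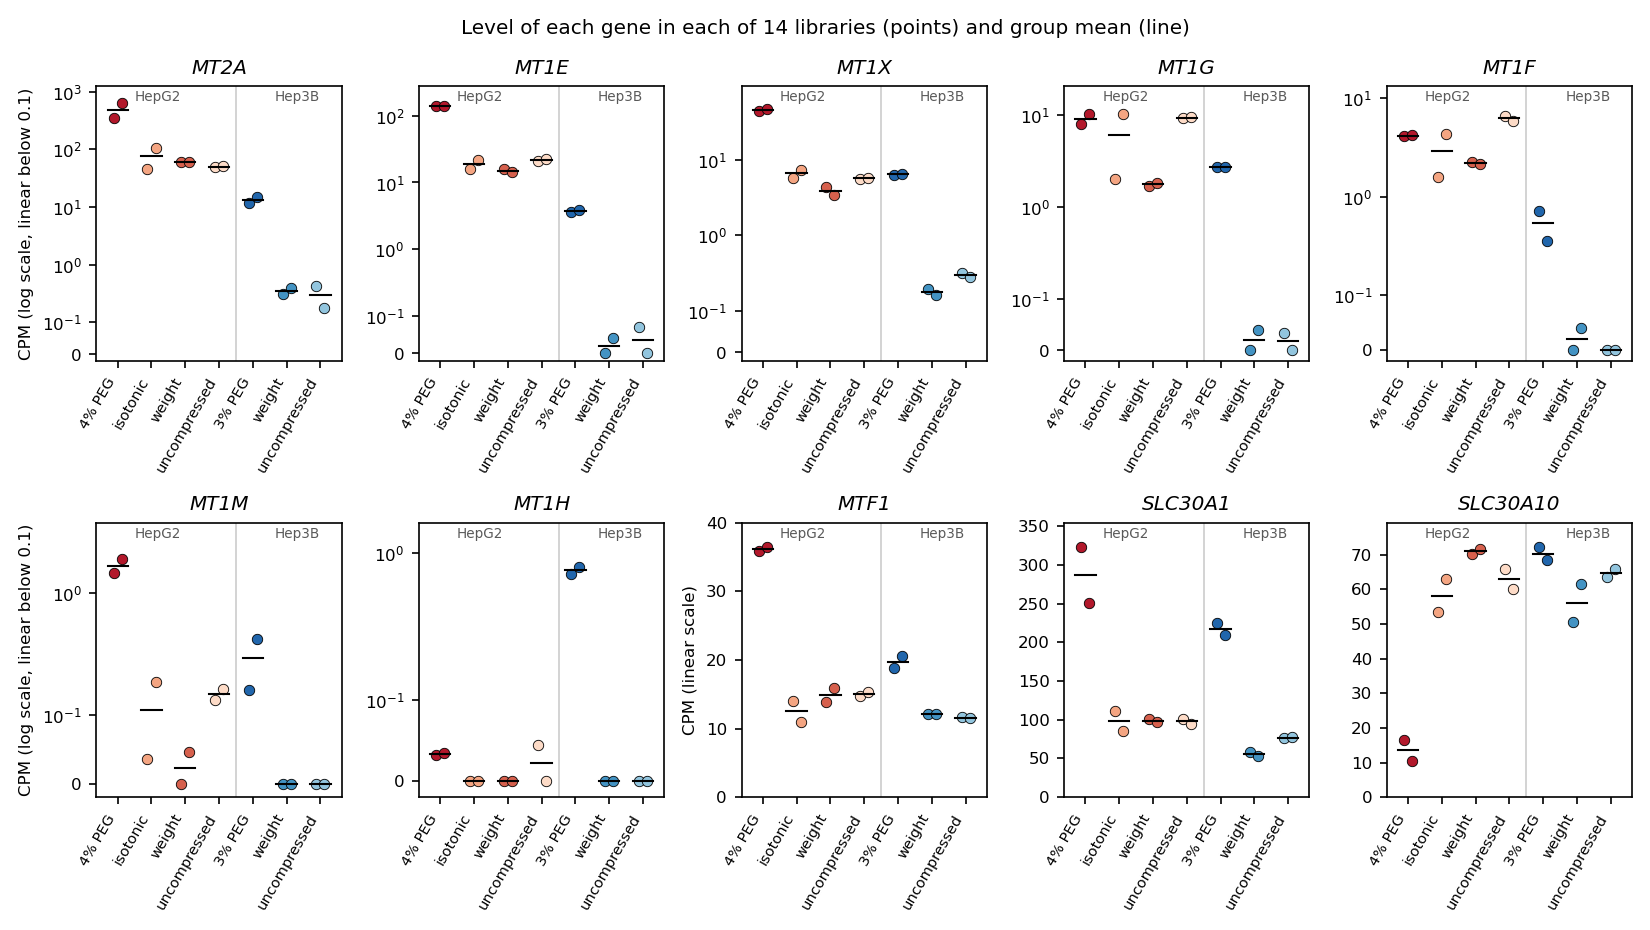
CPM of each of the 10 genes in each library (points, 2 per group) with the group mean (line), HepG2 left and Hep3B right of the grey line. The 7 metallothionein panels have a log axis that is linear below 0.1 CPM, and the other 3 panels are linear from 0. MT2A, MT1E and MT1X are highest in 4% PEG, SLC30A1 and MTF1 are high in both PEG groups, and SLC30A10 is low in 4% PEG.

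In HepG2 cells in 4% PEG, 4 metallothioneins, MTF1 and SLC30A1 were higher than in isotonic medium, and SLC30A10 was lower. The 7 metallothioneins together reached 549 and 826 CPM in 4% PEG, against 70.7 and 150 CPM in isotonic medium. Of the 10 members, 6 were called higher and 1 lower, beside 23.9% of all tested genes called higher and 23% lower. The members were chosen on this contrast among others, so nothing is read from that count or from their median fold change. With libraries scaled by total counts instead of TMM, 6918 of all genes were called higher and 2897 lower, and the same 7 members were called in the same direction. Among the 9 members with more than 3 counts in either group, the median log2 fold change was 1.55, against 0.01 over all genes.

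MT2A had 352 and 623 CPM in 4% PEG, against 45.4 and 106 CPM in isotonic medium. Both 4% PEG libraries lay above both isotonic ones, and the libraries of each group differed widely; the log2 fold change was 2.69 ± 0.36. MT1E, the next most abundant, had 139 and 138 CPM against 15.8 and 22.0 CPM (2.88 ± 0.22). MT1X had 45.2 and 48.1 CPM against 5.83 and 7.46 CPM (2.81 ± 0.18). MT1M, which was barely detected in isotonic medium, had 46 and 55 counts in 4% PEG against 1 and 4 counts in isotonic medium (3.96 ± 0.66). It passed the filter on low counts through the 4% PEG libraries and 1 library of 3% PEG, so that it had to be high there.

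MT1F and MT1G, neighbours in the cluster, were not called in 4% PEG. MT1G had 7.84 and 10.2 CPM in 4% PEG, against 2.02 and 10.1 CPM in isotonic medium (0.59 ± 0.51). MT1F had 4.13 and 4.22 CPM against 1.59 and 4.32 CPM (0.52 ± 0.41). Isotonic replicate 1 lay below both 4% PEG libraries for both genes, while isotonic replicate 2 lay between them for MT1G and above them for MT1F. Without isotonic replicate 2 both would have been called higher (2.16 for MT1G and 1.38 for MT1F), and without isotonic replicate 1 their log2 fold changes were -0.18 and -0.06. MT1H had 1 count in each 4% PEG library and none in isotonic medium, too few for a fold.

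MTF1, the zinc sensor itself, had 35.8 and 36.4 CPM in 4% PEG, against 14.1 and 11.03 CPM in isotonic medium (1.52 ± 0.16). SLC30A1 had 323 and 251 CPM against 111 and 85.8 CPM (1.55 ± 0.15). Both genes were higher without overlap between groups. SLC30A10 went the other way, with 16.5 and 10.5 CPM in 4% PEG against 53.5 and 62.9 CPM in isotonic medium (-2.11 ± 0.19). Within a library, which needs no scaling, SLC30A1 had 19.5 and 24.0 counts per count of SLC30A10 in 4% PEG, against 2.07 and 1.36 in isotonic medium. SLC30A10 was lower in 4% PEG than in any other group, and its means in the other 6 groups ran from 56.1 to 71.0 CPM.

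**Figure D2:**
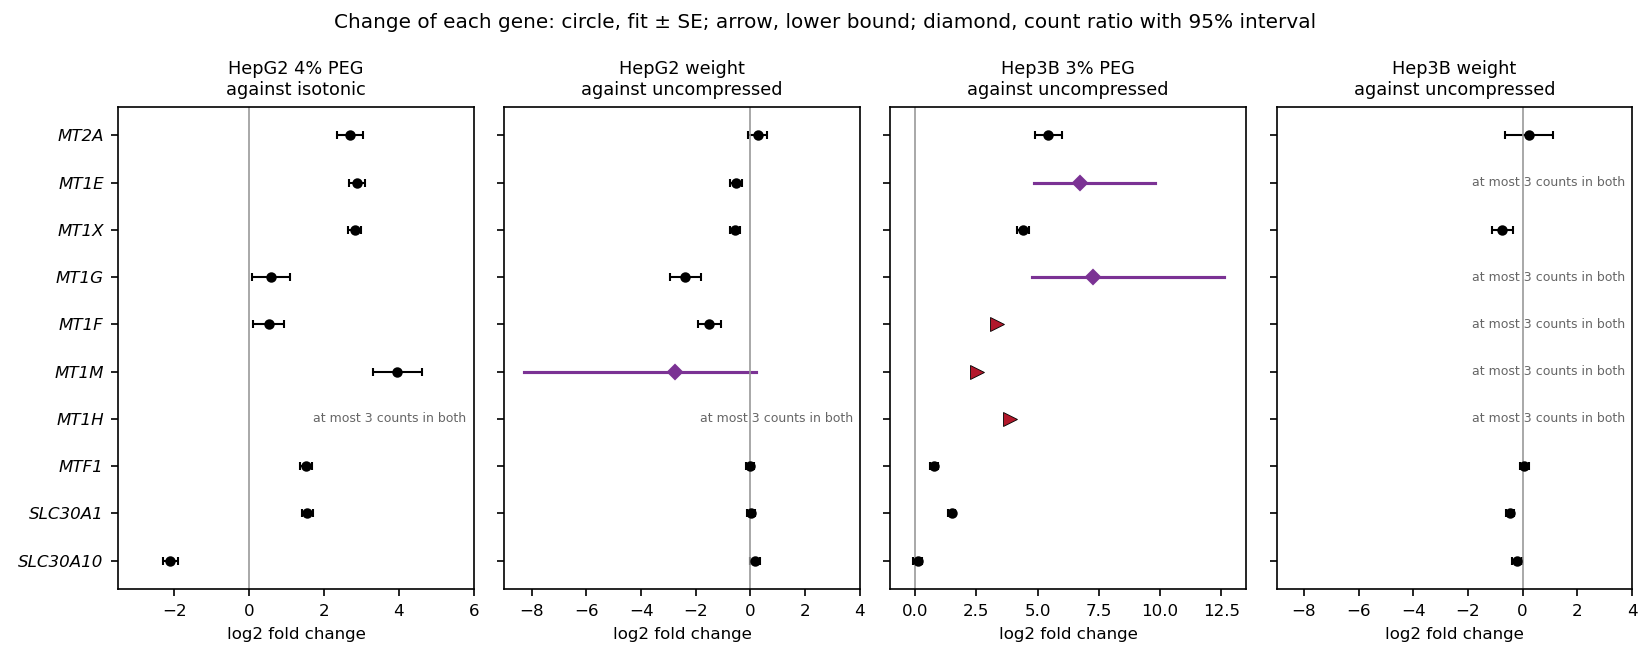
Log2 fold change of each gene in the 4 comparisons, with panels on their own scales. Circles carry the standard error of the fit, arrows are lower bounds computed at 3 counts over the uncompressed group, and diamonds are ratios of normalised counts with their exact 95% interval. SLC30A1 sits at 1.55 and 1.501 in the 2 PEG panels, and SLC30A10 at -2.11 in 4% PEG and 0.12 in 3% PEG.

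In Hep3B cells in 3% PEG all 7 metallothioneins came up from near absence. Their sum, though not MT1H, stayed well under that of HepG2 in 4% PEG. Together they had 645 and 830 counts (26.0 and 29.3 CPM) in 3% PEG, against 24 and 13 counts (0.838 and 0.456 CPM) in uncompressed cells. Of the 10 members, 9 were called higher and 0 lower in edgeR, beside 11% of all tested genes called higher and 11.5% lower. At an unadjusted p under 0.05 edgeR also gave 0 lower, and the share of all genes at that threshold is not given. DESeq2 called 8 members higher and 0 lower and gave MT1H no adjusted p. Of all 19232 genes it called 2313 higher and 2478 lower. The median log2 fold change of the 10, with genes absent from the controls at their lower bound, was 3.60, against -0.01 over all genes. The members were chosen on this contrast too, and MT1H passed the low-count filter only through 3% PEG. Nothing is therefore read from the count or the median.

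MT2A had 11.6 and 14.7 CPM in 3% PEG, against 0.419 and 0.175 CPM in uncompressed Hep3B (5.44 ± 0.55). MT1X had 6.404 and 6.53 CPM against 0.314 and 0.281 CPM (4.42 ± 0.25). These MT1X values in 3% PEG lay between those of HepG2 in isotonic medium, 5.83 and 7.46 CPM. For the other 5 genes the uncompressed libraries held 0 to 2 counts in all, so that folds are ratios of summed counts over library size, or lower bounds on them, and cover counting error only. MT1E had 198 counts in 3% PEG and 2 in uncompressed cells, a ratio of 106 (95% interval 29.1 to 885). MT1G had 144 counts and 1 count, a ratio of 155 (27.3 to 6156). MT1F had 18 and 10 counts in the 3% PEG libraries and none in uncompressed cells, at least 10.0-fold higher at 3 counts over the uncompressed group.

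MT1H, at 18 and 23 counts in 3% PEG and none in uncompressed or weighted Hep3B, was at least 14.7-fold higher. It had 3 counts in all over the 8 HepG2 libraries, and passed the low-count filter only through 3% PEG. Per kilobase of transcript, MT1H stood at 1.94 CPM and MT2A at 16.7 CPM in 3% PEG, and the promoter windows of both genes held 8 metal response element cores. MT1M had 4 and 12 counts against none, at least 5.73-fold higher, and it missed the threshold when either uncompressed library or 3% PEG replicate 2 was left out.

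MTF1 had 18.9 and 20.6 CPM in 3% PEG, against 11.7 and 11.5 CPM in uncompressed Hep3B (0.77 ± 0.15), and missed the threshold without 3% PEG replicate 2 (0.70). SLC30A1 had 225 and 209 CPM against 75.9 and 77.5 CPM (1.501 ± 0.15). The metallothionein sum stood at 688 ± 196 CPM against 110 ± 56.0 CPM in HepG2 and at 27.6 ± 2.35 CPM against 0.647 ± 0.270 CPM in Hep3B (SD, n = 2). The difference between the PEG effects of the lines was not tested. SLC30A10 had 72.1 and 68.5 CPM in 3% PEG, against 63.7 and 65.8 CPM (0.12 ± 0.18), and was not called. Its groups lay close together without overlapping, and it was called higher when these 4 libraries were fitted alone (0.14). In that fit MT1M was too low to be tested, and 4885 of 16445 genes were called higher and 4979 lower.

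Under the weight, 2 members were lower in HepG2. MT1G had 1.70 and 1.82 CPM under the weight, against 9.19 and 9.31 CPM in uncompressed HepG2 (-2.39 ± 0.56). MT1F had 2.28 and 2.15 CPM against 6.69 and 5.87 CPM (-1.50 ± 0.42). The groups did not overlap, and replicates of both genes were close. These 2 of 10 members were called lower and 0 higher in edgeR, beside 4.18% and 5.4% of all tested genes. DESeq2 called 2 lower and 0 higher, beside 1021 and 1372 of 19232 genes. At an unadjusted p under 0.05 edgeR gave 4 lower and 0 higher, and the share of all genes at that threshold is not given. Both calls were lost whichever of the 4 libraries was left out, while the log2 fold changes stayed between -2.44 and -2.35 for MT1G and between -1.60 and -1.41 for MT1F. With these 4 libraries fitted alone, MT1E, MT1F, MT1G and MT1X were called lower, and MT2A and SLC30A10 higher. That fit called 3416 of 15653 genes lower and 3556 higher.

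MT1E had 15.6 and 14.5 CPM under the weight, against 21.1 and 22.7 CPM in uncompressed HepG2 (-0.54 ± 0.21). MT1X had 4.31 and 3.41 CPM against 5.53 and 5.83 CPM (-0.55 ± 0.19). MT2A had 60.1 CPM in both weighted libraries, against 49.7 and 50.4 CPM (0.26 ± 0.34). None of these 3 was called. Their groups did not overlap, but the share of all genes that lay apart is not given, so nothing is read from that. The summed level was close between the groups, at 84.0 and 82.05 CPM under the weight against 92.4 and 94.3 CPM. MTF1 (-0.02 ± 0.15), SLC30A1 (0.01 ± 0.15) and SLC30A10 (0.17 ± 0.18) were not called. MT1M had 1 count against 7 (ratio 0.146, 95% interval 0.00324 to 1.14), and MT1H at most 1 count in either group.

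In Hep3B the weight left the metallothioneins near 0. All 7 genes together had 13 and 17 counts under the weight (0.500 and 0.677 CPM), against 24 and 13 counts in uncompressed cells. For 5 of the 7 genes both groups held at most 3 counts, which allows no fold, and no change could be detected at this depth. MT1X had 9 counts under the weight against 17 in uncompressed cells, a log2 fold change of -0.74. MT2A had 18 counts against 17 (0.24). Neither was called. SLC30A1 had 58.9 and 53.55 CPM under the weight, against 75.9 and 77.5 CPM (-0.45 ± 0.15). It was not called, though it was when the 4 libraries were fitted alone. That fit called 1425 of 16303 genes higher and 1049 lower. SLC30A10 had 50.5 and 61.6 CPM against 63.7 and 65.8 CPM (-0.21 ± 0.18), and MTF1 12.1 and 12.2 CPM against 11.7 and 11.5 CPM (0.07 ± 0.15). edgeR called 0 members in either direction, beside 0.879% of all genes higher and 0.172% lower. At an unadjusted p under 0.05 it gave 0 higher and 1 lower, and the share of all genes at that threshold is not given. DESeq2 called 0 members, beside 363 higher and 125 lower of 19232 genes. Weight and 3% PEG share their uncompressed Hep3B controls. Set directly against 3% PEG, the weight libraries were called lower for 9 of the 10 members, all but SLC30A10, beside 11.4% of all genes. MT1H and MT1M passed the low-count filter only through PEG libraries, so nothing is read from that count.

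The makeup of the metallothionein pool differed between some groups as well as its size. MT1G took 2.02% and 2.22% of the summed counts in HepG2 under the weight, against 9.94% and 9.87% in uncompressed HepG2. MT2A took 71.5% and 73.2% under the weight, against 53.8% and 53.4%. In 4% PEG the share of MT1G was 1.43% and 1.24%, against 2.85% and 6.76% in isotonic medium. The shares of MT2A, MT1E and MT1X overlapped between these groups. MT2A took 64.1% and 75.5% in 4% PEG, against 64.3% and 70.6% in isotonic medium. Hep3B in 3% PEG drew on the family more evenly than HepG2 did. MT2A took 44.8% and 50% of its counts, MT1X 24.7% and 22.3%, MT1E 13.8% and 13.1%, and MT1G 10.5% and 9.16%. MT1X took 4.15% to 8.25% in the 8 HepG2 libraries. Shares in uncompressed and weighted Hep3B rest on 13 to 24 counts a library and are not compared.

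**Figure D3:**
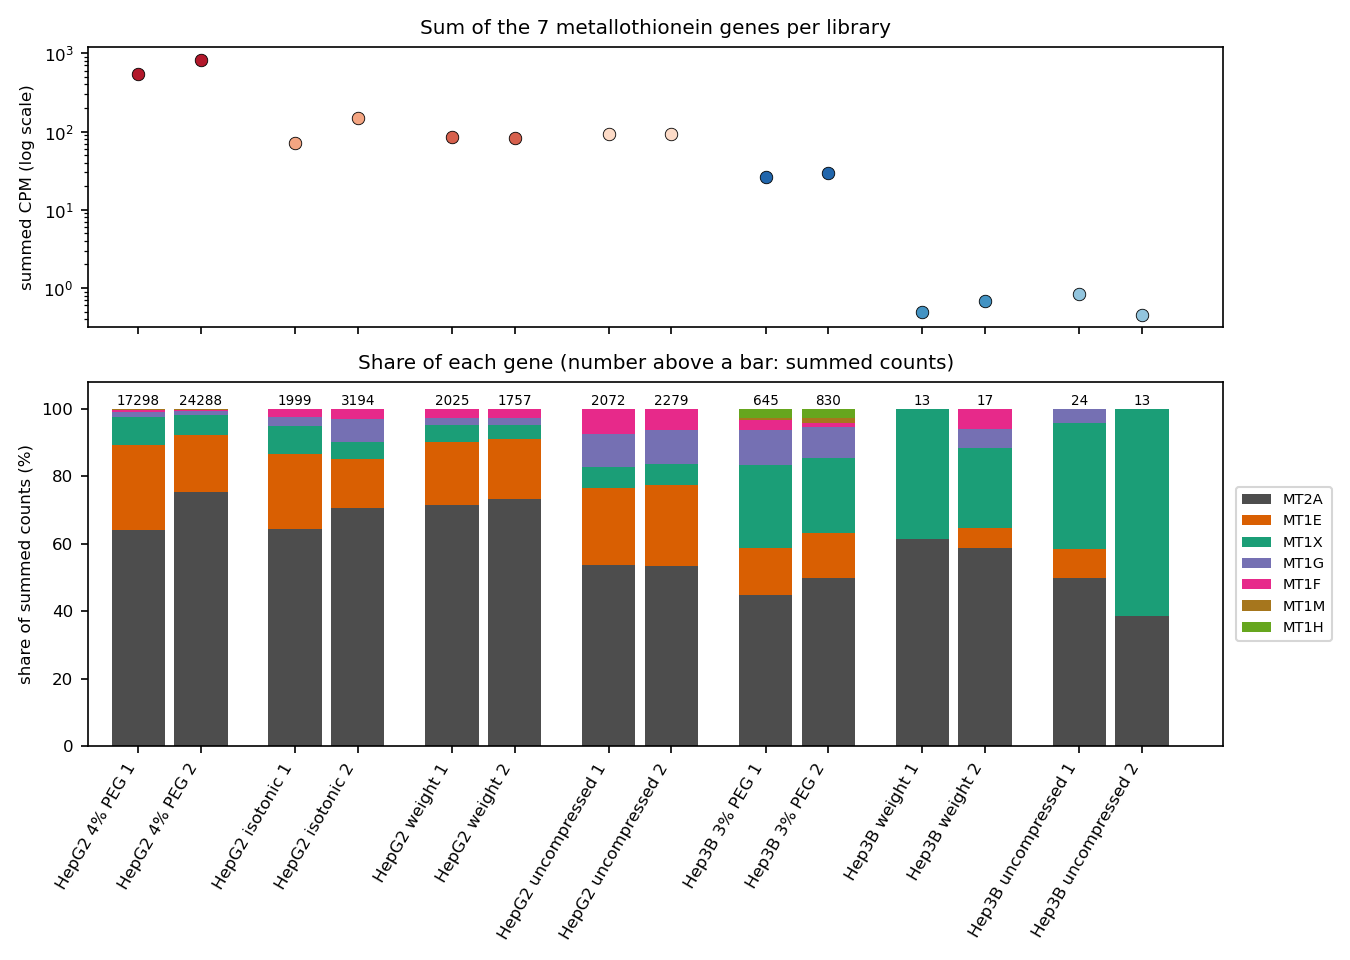
Summed CPM of the 7 metallothionein genes in each library on a log axis (top), and the share of each gene in the summed counts in percent (bottom), with the summed counts above each bar. The 2 libraries of 4% PEG stand at 549 and 826 CPM and the 2 of 3% PEG at 26.0 and 29.3 CPM. The MT1G segment is thin under the weight in HepG2 and wide in uncompressed HepG2.

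Along the cluster, the genes called in 4% PEG were not a single block. MT2A, MT1E and MT1M lie 43.2 kb, 60.4 kb and 67.2 kb from its left end and MT1X at the right end, and MT1F and MT1G, which were not called, lie between MT1M and MT1X. That gap hangs on isotonic replicate 2, without which the log2 fold changes of MT1F and MT1G were 1.38 and 2.16, so no pattern by position is read. MT1A, a metallothionein gene outside the 10, sits between MT1M and MT1F. It had 10.5 and 13.9 CPM in 4% PEG, against 0.636 and 0.986 CPM in isotonic medium (3.93 ± 0.35, edgeR adjusted p = 1.35e-05). In Hep3B it had 1 count over all 6 libraries, and that count was in 3% PEG. Of the 6 genes taken by position as flanks, 1 was called higher and 4 lower in 4% PEG, beside 23.9% and 23% of all genes. In 3% PEG 2 were called higher and 2 lower, beside 11% and 11.5%. The largest change among them was that of SLC12A3 to the right in 4% PEG (-9.57), which was not called in 3% PEG. OGFOD1 to the left was higher in both (0.37 and 0.56), and NUDT21 to the left (-1.25 and -0.45) and NUP93 to the right (-0.63 and -0.38) were lower in both.

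**Figure D4:**
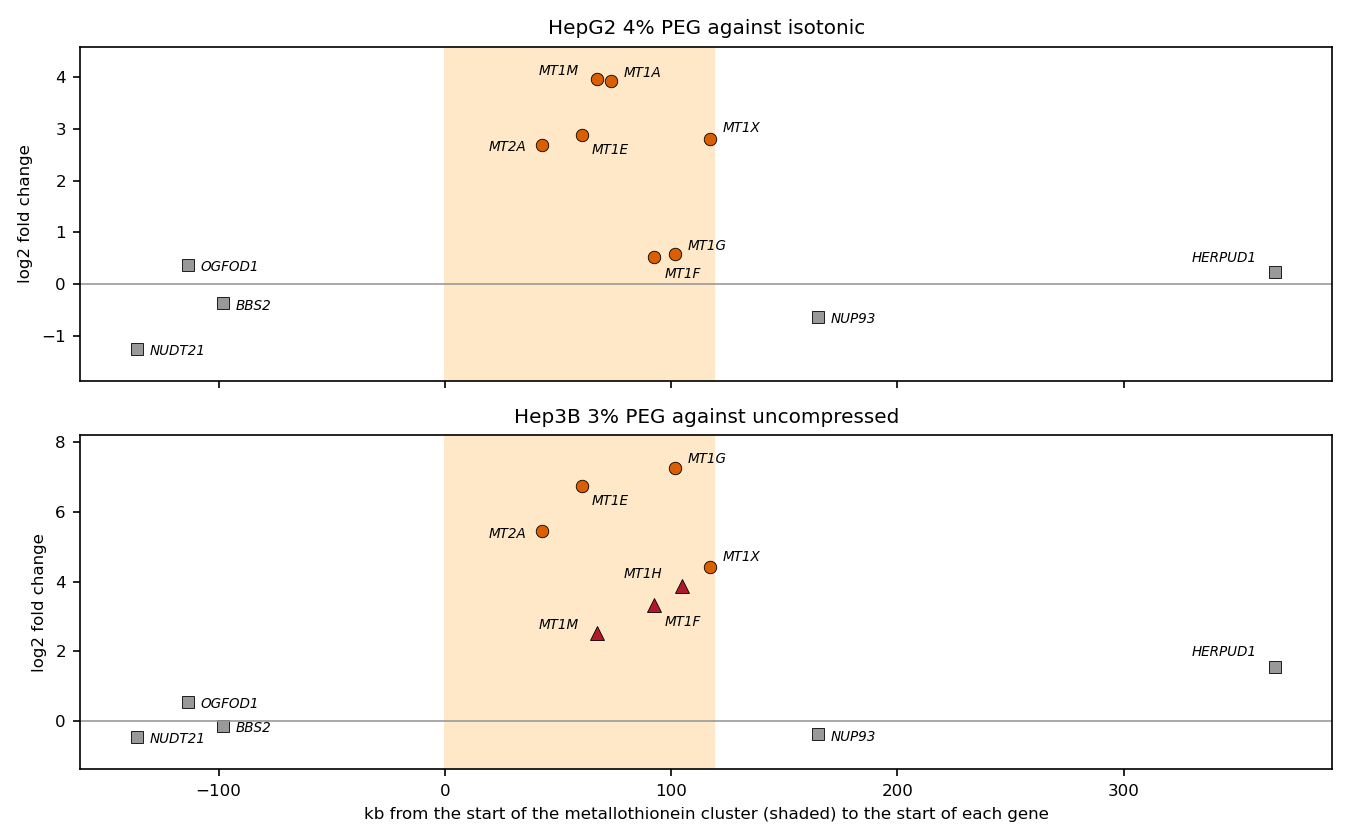
Log2 fold change of metallothionein genes (orange circles; red triangles, lower bounds) and of 5 flanking genes (grey squares) against distance in kb from the start of the cluster, which is shaded. SLC12A3, also a flanking gene, at -9.57 in 4% PEG, is not drawn. In 4% PEG, MT1F and MT1G lie at 0.52 and 0.59, values that hang on isotonic replicate 2. In 3% PEG, MT1E and MT1G are ratios over at most 2 uncompressed counts, drawn without intervals. They are not ranked against the lower bounds.

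The family is closely alike in sequence, which bears on how reads were assigned. Each of the 7 genes encodes 61 codons with 20 cysteine codons (stop excluded), and the coding sequences of these genes and MT1A were 88.5% to 95.1% identical over 28 pairs. Of the 100-base windows of the principal transcripts, none in MT1E, MT1F, MT1G, MT1M or MT2A occurred in a transcript of another gene. MT1H shared 3.36% of its windows with MT1HL1, which had at most 1 count in a library, and MT1X shared 19.1% with AC026461.1, an overlapping noncoding gene that had 0 counts in all 14 libraries. MT2P1, a pseudogene of MT2A, had 29 and 55 counts in 4% PEG, against 6 and 5 counts in isotonic medium (2.62 ± 0.54, edgeR adjusted p = 0.00297). How the counting treated reads that fit several genes is not stated by the labels, so values of MT1X and MT1H are uncertain to that extent. MT2A shared no window with MT2P1, but only exact windows were compared. Reads with mismatches were not examined, so the values of MT2P1 and of the other metallothioneins are not cleared by this comparison.

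Other zinc transporters changed in PEG too. SLC39 proteins carry zinc into the cytosol, and 12 of 14 listed genes were tested. In 4% PEG 5 of the 12 fell and 1 rose, beside 23% and 23.9% of all genes. SLC39A14, an importer of zinc, iron and manganese in liver cells, had 338 and 473 CPM in 4% PEG, against 991 and 1138 CPM in isotonic medium (-1.39 ± 0.14, edgeR adjusted p = 1.12e-05). SLC39A10 had 69.3 and 59.8 CPM against 145 and 127 CPM (-1.08 ± 0.11, edgeR adjusted p = 9.64e-06). SLC39A8, which also carries manganese, rose from a low level, at 3.87 CPM in 4% PEG against 0.870 CPM (2.15 ± 0.30, edgeR adjusted p = 0.000125). SLC39A7 fell by 0.52 on the log2 scale, as did SLC39A5 by 1.61 and SLC39A1 by 0.61, which are named after their values were seen. The fall of SLC39A5 was lost without isotonic replicate 2, and that of SLC39A1 without isotonic replicate 2 or 4% PEG replicate 1. With total-count scaling SLC39A1 and SLC39A7 were not called, and with the dish libraries fitted alone SLC39A1, SLC39A5 and SLC39A7 were not.

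In 3% PEG 2 of the 12 importers rose and 1 fell, beside 11% and 11.5% of all genes. SLC39A10 had 83.8 and 83.4 CPM in 3% PEG, against 137 and 134 CPM in uncompressed Hep3B (-0.70 ± 0.11, edgeR adjusted p = 0.000875). SLC39A8 (0.92 ± 0.23) and SLC39A6 (0.56 ± 0.16) rose, with edgeR adjusted p = 0.0153 and 0.0234, and both missed the threshold whichever library was left out. SLC39A14 had 377 and 389 CPM against 317 and 314 CPM and was not called (0.28 ± 0.14, edgeR adjusted p = 0.185). Of the 6 tested SLC30 genes other than the members, 3 rose and 1 fell in each PEG comparison, beside 23.9% and 23% of all genes in 4% PEG and 11% and 11.5% in 3% PEG. All 4 calls in 3% PEG (SLC30A3, SLC30A5, SLC30A6 and SLC30A7) were lost whichever library was left out. In 4% PEG that of SLC30A5 was lost without isotonic replicate 2 or 4% PEG replicate 1. SLC30A7, which fills the secretory pathway with zinc, was higher in both, at 107 against 55.2 CPM in HepG2 (0.96 ± 0.18, edgeR adjusted p = 0.000962) and 52.4 against 33.3 CPM in Hep3B (0.65 ± 0.18, edgeR adjusted p = 0.0214). The HepG2 call of SLC30A7 was lost when the dish libraries were fitted alone.

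Under the weight in HepG2, 1 importer rose and 2 fell, beside 5.4% and 4.18% of all genes. SLC39A14 had 796 and 818 CPM under the weight, against 1638 and 1659 CPM in uncompressed HepG2 (-1.03 ± 0.14, edgeR adjusted p = 0.00113), and kept its call whichever library was left out. SLC39A7 fell by 0.50 and SLC39A11 rose by 0.53 on the log2 scale, and both calls were lost whichever library was left out. In Hep3B edgeR called 0 of the 12 under the weight, beside 0.879% of all genes higher and 0.172% lower. At an unadjusted p under 0.05 edgeR gave 1 higher and 0 lower, and the share of all genes there is not given. DESeq2 called 0 of the 12, beside 363 higher and 125 lower of 19232 genes. The weight effect on SLC39A14 differed between the lines by 0.91 ± 0.20 (Hep3B minus HepG2, edgeR adjusted p = 0.0431). In that contrast 0.822% of all genes were called with a positive difference.

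**Figure D5:**
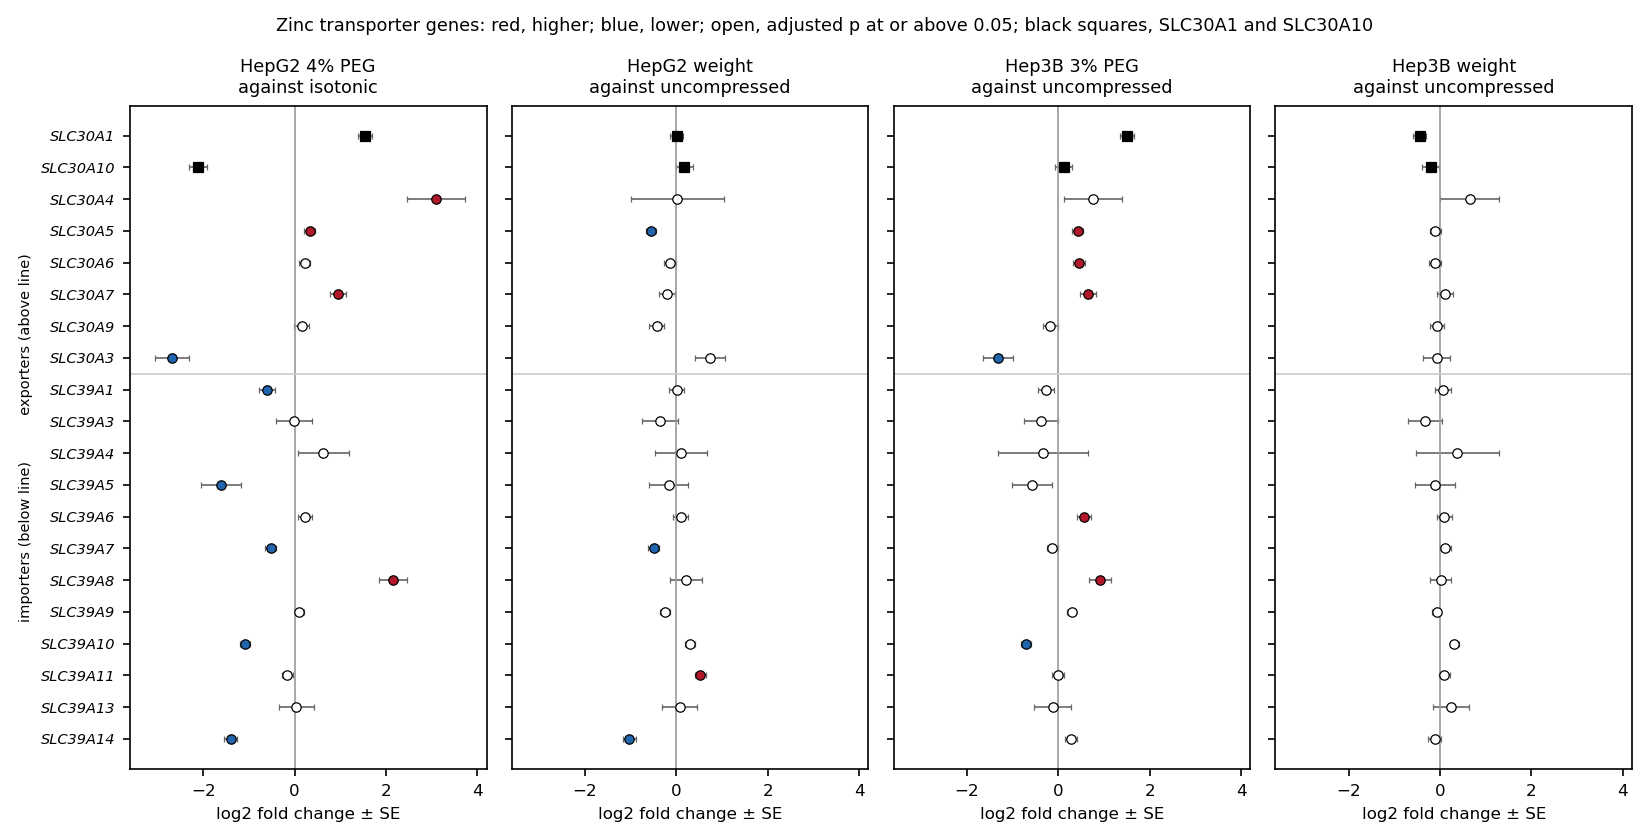
Log2 fold change ± SE of zinc transporter genes, exporters above and importers below the line, in the 4 comparisons. Red and blue circles passed an edgeR adjusted p of 0.05, and black squares are SLC30A1 and SLC30A10. SLC39A14 lies at -1.39 in 4% PEG and -1.03 under the weight in HepG2, and within 0.28 of 0 in Hep3B.

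Genes that share inducers with metallothioneins moved unevenly. Of 9 genes of metal and oxidant stress, 8 rose and 0 fell in 4% PEG in edgeR, beside 23.9% and 23% of all genes. DESeq2 and edgeR at an unadjusted p under 0.05 each gave 9 higher and 0 lower there. Of all 19232 genes, DESeq2 called 4504 higher and 4340 lower. In 3% PEG 6 rose and 0 fell, beside 11% and 11.5% of all genes. DESeq2 gave 6 higher and 0 lower, beside 2313 higher and 2478 lower of 19232 genes. At an unadjusted p under 0.05 edgeR gave 7 and 0. The share of all genes at the unadjusted threshold is given for neither PEG comparison, so nothing is read from those counts. SLC7A11, the cystine importer, had 364 CPM in 4% PEG against 45.3 CPM (3.00 ± 0.26, edgeR adjusted p = 2.65e-06) and 285 CPM in 3% PEG against 32.3 CPM (3.14 ± 0.26, edgeR adjusted p = 1.16e-05). HMOX1, the heme oxygenase gene induced by many metals, had 35.2 CPM in 3% PEG against 8.75 CPM (2.01 ± 0.39, edgeR adjusted p = 0.00343). In HepG2 it had 45.8 and 99.6 CPM in 4% PEG against 23.3 and 53.8 CPM, which overlapped (0.92 ± 0.37, edgeR adjusted p = 0.0595). HMOX1 was called higher there by DESeq2 (adjusted p = 0.0345), with a replicate block (edgeR adjusted p = 0.0368), without a low-count filter, with total-count scaling and without isotonic replicate 2 or 4% PEG replicate 1. Of 4 MTF1-linked genes outside the cluster, 2 rose and 1 fell in 4% PEG, and 1 rose and 1 fell in 3% PEG, beside the same shares of all genes. The gene that fell in both was SLC39A10, given above. GCLC, the catalytic subunit of glutathione synthesis, rose by 2.23 ± 0.13 in 4% PEG and 2.30 ± 0.13 in 3% PEG (edgeR adjusted p = 1.45e-07 and 9.66e-07). PGF, a growth factor of the placenta and blood vessels, rose in 4% PEG, at 41.5 CPM against 12.2 CPM (1.77 ± 0.28, edgeR adjusted p = 0.000338), and had 7.11 CPM in 3% PEG against 5.86 CPM (0.28 ± 0.29, edgeR adjusted p = 0.555). SELENOH, a selenoprotein gene, passed the threshold in neither, at 7.32 CPM in 4% PEG against 10.3 CPM and 20.3 CPM in 3% PEG against 19.7 CPM.

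Of 9 glucocorticoid response genes, 2 rose and 4 fell in 4% PEG, beside 23.9% and 23% of all genes, and 3 rose and 2 fell in 3% PEG, beside 11% and 11.5%. FKBP5 had 71.3 CPM in 4% PEG against 45.1 CPM (0.66 ± 0.17, edgeR adjusted p = 0.00646) and 75.7 CPM in 3% PEG against 63.5 CPM (0.25 ± 0.16, edgeR adjusted p = 0.310). The 4% PEG call of FKBP5 was lost without 4% PEG replicate 1 and with the dish libraries fitted alone. TSC22D3 rose in both PEG comparisons (2.18 ± 0.29 and 1.69 ± 0.22; edgeR adjusted p = 8.81e-05 and 0.000283). SGK1, which also answers to osmotic stress, fell in both (-4.13 ± 0.18 and -1.64 ± 0.16; edgeR adjusted p = 1.97e-08 and 4.06e-05).

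Over all 14 libraries, with log2 CPM centred within each line, AKR1B10 was the closest to the mean of the 7 metallothioneins among named genes outside the 10 with a mean of at least 5 CPM, which leaves out MT1A, at a root mean square difference of 0.478 log2 units. IL6R followed at 0.541, TLE3 at 0.572, BHMT2 at 0.585 and SCGN at 0.593, against a median of 1.48 over all genes at that level. The 7 metallothioneins themselves lay 0.469 to 0.781 from their mean. AKR1B10, an aldo-keto reductase, had 115 CPM in 4% PEG against 11.6 CPM in isotonic medium, 12.01 CPM under the weight against 26.7 CPM in uncompressed HepG2, and 4.501 CPM in 3% PEG against 0.140 CPM in uncompressed Hep3B. IL6R, the interleukin 6 receptor, had 181 CPM in 4% PEG against 52.6 CPM, and 134 CPM in 3% PEG against 25.7 CPM. These genes were ranked by likeness, so their match is a description.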

How the data were processed

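Total RNA had been isolated with an RNeasy kit and sequenced as paired 100-base reads, per the labels' protocols. STAR, DESeq2 and the GRCh38 (hg38) build appear in the submitters' processing notes; which tool counted reads, on which annotation and with what strand setting, is not given in the sources used here. Deposited by the authors were raw counts, 1 column per library, neither pooled nor normalised. Entries with no gene name held at most 0.308% of a library. The Hep3B control columns were read as uncompressed transwell cultures.

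Genes were filtered with filterByExpr (minimum count 10), which all 10 members passed, scaled by TMM and fitted in edgeR 4.0.16 (R 4.3.3, glmQLFit with robust estimation, glmQLFTest) with a mean for each of the 7 groups over all 14 libraries. P-values were adjusted by Benjamini-Hochberg over 19232 genes. Since the labels do not describe separate cultures for every group, they measure the spread between labelled samples. Intervals and bounds cover counting error only. The model was tested on simulated data that had the same spread per gene in every group. That test therefore does not bear on the wider spread between replicates on dishes.

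Members, companion lists and tests were chosen with earlier results of these data known. All members are named; of each companion list, up to 4 genes with the smallest p per comparison could be named, with SLC39A14, SLC39A10, HMOX1 and FKBP5 in any case. Flanking genes and MT1A were named for their place in the cluster. Coordinates and transcripts are from GENCODE 29, and promoters from RefSeq (GRCh38.p14), which matched 6 of the 10 members. Alternatives were RLE size factors, other filters, the compared groups alone, DESeq2 1.42.0, a replicate block, each library left out and, chosen after seeing the data, total-count scaling and a fit without mitochondrially encoded genes.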

Additional observations from a re-analysis of the deposited data

Results flagged for a closer look

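SLC30A10 stood below both isotonic libraries in both 4% PEG libraries of HepG2 (log2 fold change -2.11) and above both uncompressed libraries in both 3% PEG libraries of Hep3B (0.12). SLC39A14 did the same, at -1.39 in HepG2 and 0.28 in Hep3B. Neither gene was called in Hep3B in the main fit. With 2 libraries a group, groups can lie apart without a change, and the share of all genes that did so is not given. No opposite direction is therefore read from these values. For both genes the difference between the lines was not tested, and line, PEG dose and culture surface cannot be told apart in it.

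The weight effect differed between the lines in a test of the difference itself for SLC39A14 (0.91 ± 0.20, Hep3B minus HepG2, edgeR adjusted p = 0.0431) and for SGK1 (1.20 ± 0.23, edgeR adjusted p = 0.0211). SGK1 fell by 1.79 on the log2 scale under the weight in HepG2, and stood at -0.59 ± 0.16 in Hep3B (edgeR adjusted p = 0.151). In both lines both weighted libraries lay below both uncompressed ones. In Hep3B, SGK1 was called lower by DESeq2 (adjusted p = 0.0173), without a low-count filter and with the compared groups alone.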

How the results depend on the processing

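The 7 members called in 4% PEG were called in the same direction under every alternative that tested them, and no called member changed sign. MT1M and MT1H were not tested under the stricter filter (5 CPM in 2 libraries). In HepG2 under the weight, 1 member instead of 2 was called lower with RLE size factors, the stricter filter or total-count scaling, because MT1F was lost; with the compared groups alone 4 were called lower and 2 higher, and in Hep3B under the weight 1 lower. Leaving out each library gave 0 to 0 members lower in HepG2 under the weight.

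Counts over all genes moved more. With the compared groups alone, higher and lower calls were 2022 and 1742 in 4% PEG, 3556 and 3416 in HepG2 under the weight, 1425 and 1049 in Hep3B under the weight, and 4885 and 4979 in 3% PEG. For Hep3B under the weight, no low-count filter gave 375 and 81, and DESeq2 363 and 125. Total-count scaling gave 6918 and 2897 in 4% PEG, where it shifted the median log2 fold change of all genes to 0.37. Leaving out each library gave 301 to 486 higher and 162 to 206 lower in HepG2 under the weight, 38 to 111 and 0 to 9 in Hep3B under the weight, and 901 to 1086 and 963 to 1187 in 3% PEG. The remaining library of a group was then assumed to vary like the other groups. The cause of these shifts was not tested.

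The labels do not say that replicate numbers pair libraries. Same-numbered libraries deviated together on dishes (r = 0.633 across genes) and hardly on transwells (-0.078 to 0.073). A replicate block gave 6 members higher and 1 lower in 4% PEG and 2 lower in HepG2 under the weight, and 4801 and 4618 of all genes in 4% PEG.

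Depth limits the metallothioneins in uncompressed and weighted Hep3B, where 5 of 7 had at most 3 counts in both groups.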
